A study of Mus musculus with 10 samples.

Results

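Pu.1, the C/EBP factors, Irf8 and the receptors for myeloid cytokines were followed as 10 genes in RNA-seq of CD34- hematopoietic stem cells (HSCs). The genes were Spi1, Cebpa, Cebpb, Cebpd, Cebpe, Irf8, Csf1r, Csf3r, Csf2ra and Csf2rb, chosen by symbol, and they were 10 of the 33393 genes in the files. They had 30 annotated transcripts. The study sorted Lin- ScaI+ cKit+ CD34- Flt3- cells from femur marrow of individual C57BL/6 mice aged 8 weeks. Control mice were Reg1flox/flox, and Reg1Δ/Δ mice were Vav1-iCre; Reg1flox/flox, so both groups carried the floxed Regnase-1 gene (Zc3h12a) and no mice with Cre alone were among the samples. Vav1-iCre is active in blood cells in general, so the mature blood cells of these mice also carried the deletion. From the sample titles, 3 control and 3 Reg1Δ/Δ samples formed a first experiment (Control, VavKO), and 2 control and 2 Reg1Δ/Δ samples formed a second one (Control_LT-HSC, VavReg1_KO_LT-HSC).

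Pu.1, encoded by Spi1, is an Ets-family factor that drives myeloid and B lymphoid fate and binds the control regions of many genes of myeloid cells, cytokine receptors among them. The C/EBP proteins are leucine zipper factors that act at successive steps of granulocyte formation, and Irf8 is a partner of Pu.1 that favours monocytes and dendritic cells over granulocytes. Their receptors bring in the signals of the colony stimulating factors, M-CSF through Csf1r, G-CSF through Csf3r, and GM-CSF through Csf2ra paired with Csf2rb. HSCs hold most of these genes at a low level, and the levels rise as cells commit to the myeloid lineage.

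Values are given as TPM, a relative abundance that adjusts for transcript length and has the same total in every sample, summed over the transcripts of a gene. Read numbers cannot be recovered from TPM, so library depth is unknown and the counting error of the values could not be estimated. Differences are on the log2(TPM + 1) scale, Reg1Δ/Δ minus control, with the standard error (SE) and the adjusted p (FDR) from limma with the experiment as a covariate, and this scale understates the fold of genes with low TPM. Zc3h12a itself was 1.83, 1.28 and 1.603 TPM in Control, 3.54, 2.08 and 2.51 in VavKO, 1.48 and 6.07 in Control_LT-HSC and 10.2 and 8.52 in VavReg1_KO_LT-HSC. The gene meant to be deleted was thus higher in the libraries labelled Reg1Δ/Δ (log2 difference 0.83, SE 0.28, limma FDR 0.0314), and every direction below is by label. That call held in 12 of 21 alternatives and was lost, for example, in each experiment alone (FDR 0.0527 and 0.265), with log2 differences from 0.52 to 1.73. The summed TPM is not limited to the floxed part of the gene, so it is no direct check of the deletion. The experiments differed in the make-up of their libraries. Protein-coding transcripts took 46.2% to 49.1% of the TPM in the first and 73.5% to 81.1% in the second, and transcripts above 0 numbered 64790 to 72706 and 38071 to 44203. None of the 12 HSC markers was at 0 in all samples of any group.

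Of the 10 genes, 9 were lower in the libraries labelled Reg1Δ/Δ at an FDR under 0.05 and 0 were higher. Over all 12874 genes tested, 37.9% were lower and 15% were higher. The remaining gene, Csf2rb, did not pass. In 8 of the 10 genes the groups did not overlap within either experiment, with every library labelled Reg1Δ/Δ below every control, and 31.4% of all genes had that pattern. The median log2 difference was −1.49 over the 10 genes and −0.25 over all genes tested. Since the all-gene median was itself below 0, scaling mattered. Quantile normalization raised it by 0.40 to 0.14 and median-of-ratios scaling raised it by 0.36 to 0.10, and the split of all calls changed from 1933 higher and 4880 lower to 3861 and 2636, and to 4334 and 3245. Calls among the 10 genes dropped to 5 lower after quantile normalization, with Cebpa, Cebpb, Cebpd and Cebpe lost, and to 8 after median-of-ratios scaling. By sign alone, under each of these scalings 9 of the 10 genes lay below 0 and below the all-gene median, with a median of −1.24 relative to it in the original scale, −0.94 after quantile normalization and −1.32 after median-of-ratios scaling. All 10 genes passed the filter on low values (TPM of at least 1 in 5 samples), but Cebpd reached 1 TPM in the 5 controls alone. Csf1r did so in the 5 controls and 1 library labelled Reg1Δ/Δ, and Cebpa and Cebpe each in 4 controls and 2 such libraries. None of these genes would have been tested without the controls, where they were high, so their calls lean on that group. In the fit over all 33393 genes, with no filter, 8 of the 10 were lower, and 5592 of the 33393 were lower. RNA of sorted populations was measured in bulk, so fewer cells of a type and less RNA per cell cannot be told apart.

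**Figure D1:**
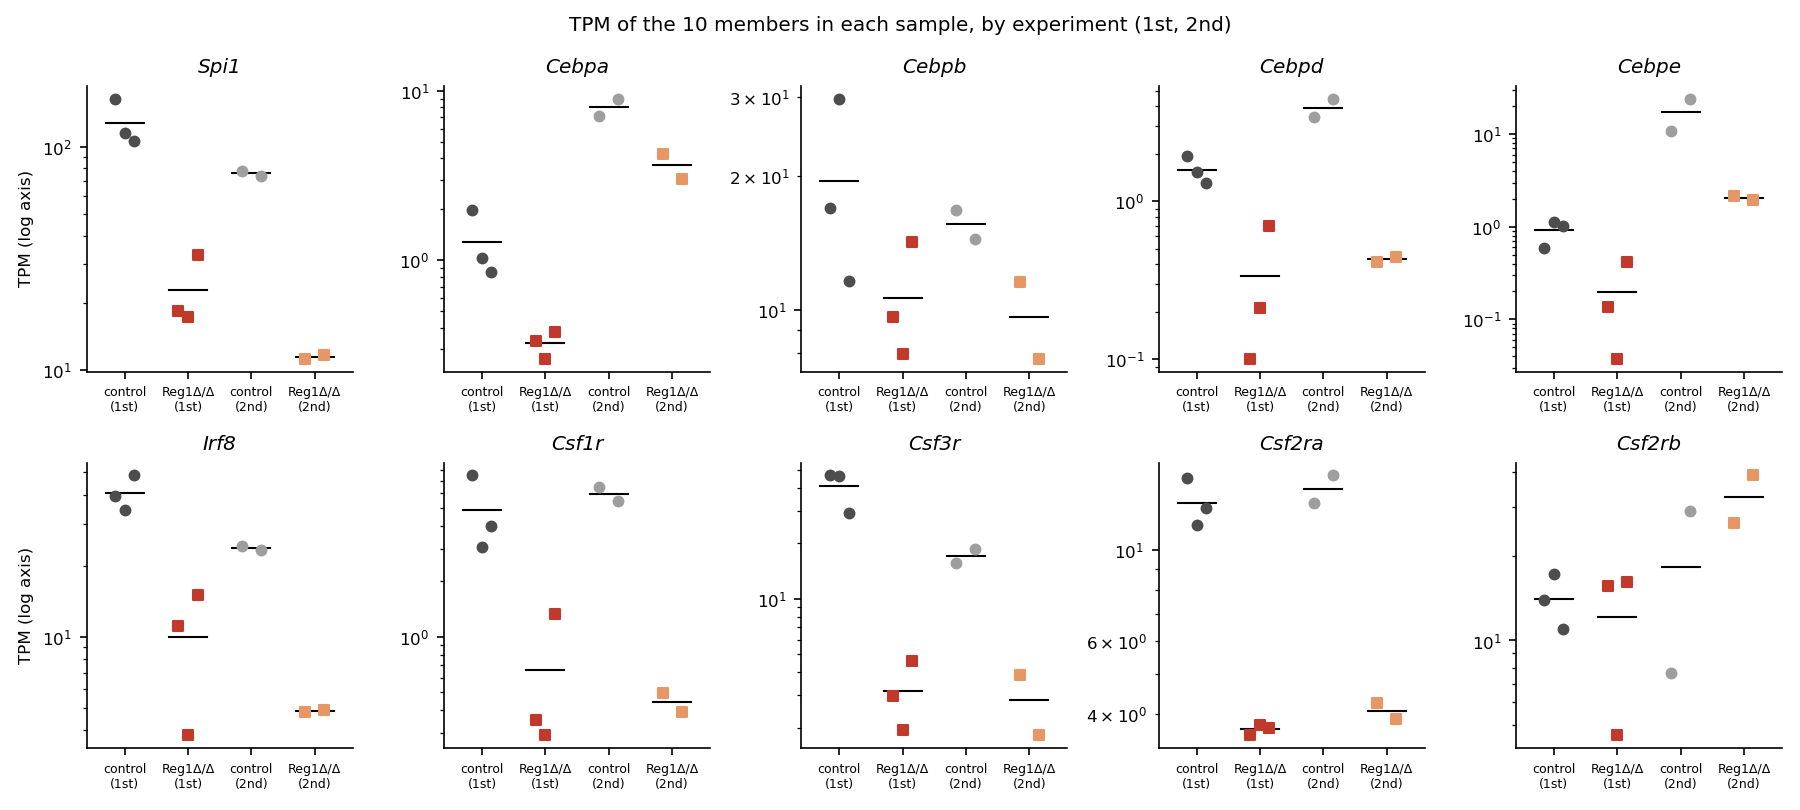
TPM on a log axis of each gene in every sample, for control (circles) and Reg1Δ/Δ libraries (squares) of the first (1st) and second (2nd) experiment, with a line at each group mean. In 8 of the 10 panels the squares lie below all circles of the same experiment, and Cebpb and Csf2rb are the panels in which they overlap.

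Spi1 (ENSMUSG00000002111, GRCm38 chr2:91082390-91115756, plus strand) was the highest of the 10 genes in the controls. Its level was 164, 115 and 106 TPM in Control and 78.0 and 74.4 in Control_LT-HSC. Among the libraries labelled Reg1Δ/Δ it was 18.4, 17.2 and 32.8 TPM in VavKO and 11.2 and 11.7 in VavReg1_KO_LT-HSC. The highest of these 5 values was less than the lowest control value of either experiment. The group means differed 5.63-fold and 6.64-fold in the 2 experiments, and Spi1 fell by 2.54 on the log2 scale (SE 0.19, limma FDR 4.92e-06). It passed under all 21 alternative settings of the gene-level fit, with FDRs from 5.19e-07 to 0.0137.

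Spi1 has 4 annotated transcripts, and short ones carried much of its TPM. In the controls the transcripts of 402, 544 and 613 bases together outweighed the full-length messenger of 2034 bases, which took 13.6% to 15.4% of the gene's TPM in Control and 26.0% to 38.3% in Control_LT-HSC. That share was 12.6% to 20.5% in VavKO and 34.9% to 61.7% in VavReg1_KO_LT-HSC. Sums over transcripts are therefore a level of Spi1 RNA rather than of its full-length messenger. The full-length transcript on its own was lower in the libraries labelled Reg1Δ/Δ, by −2.09 (SE 0.22, limma FDR 1.82e-04 over transcripts), as were those of 613 bases (−2.32, FDR 2.82e-05) and 544 bases (−2.96, FDR 3.89e-04). The transcript of 402 bases did not pass (−1.36, SE 0.76, FDR 0.231), and it was at 0 in the Control_LT-HSC replicate 1 library.

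The Irf8 protein binds many of its sites together with Pu.1. Its gene (Irf8, ENSMUSG00000041515, chr8:120736358-120756694, plus strand) was second to Spi1 by mean in both control groups. Its values overlapped those of Csf3r in Control and of Csf2rb in Control_LT-HSC. Irf8 stood at 39.4, 34.4 and 48.2 TPM in Control against 11.1, 3.81 and 15.02 in VavKO. The second experiment had 24.3 and 23.3 TPM in Control_LT-HSC against 4.77 and 4.88 in VavReg1_KO_LT-HSC. Again no library labelled Reg1Δ/Δ reached a control of its experiment, and the means differed 4.08-fold and 4.92-fold. Irf8 fell by 2.08 on the log2 scale (SE 0.28, limma FDR 2.14e-04) and passed under all 21 alternatives. Of its 7 transcripts the full-length coding one of 2847 bases was lower (−1.93, SE 0.24, FDR 5.18e-04), while the 3 shorter ones that could be tested had log2 differences of −0.80, −0.87 and −1.17 and did not pass.

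The C/EBP genes were lower in level than Spi1, and their evidence was less even. Cebpa (ENSMUSG00000034957, chr7:35119293-35121928, plus strand) encodes the factor needed to form granulocyte-monocyte progenitors. It was near 1 TPM in the first experiment, with 1.997, 1.03 and 0.856 in Control and 0.336, 0.263 and 0.378 in VavKO. Levels were higher in the second, at 7.10 and 8.97 TPM in Control_LT-HSC and 4.26 and 3.04 in VavReg1_KO_LT-HSC. The groups did not overlap in either experiment, and the means differed 3.97-fold and 2.20-fold. Cebpa fell by 0.84 on the log2 scale (SE 0.15, limma FDR 0.00134). Over the alternatives its FDR ran from 3.28e-04 to 0.711, and it missed 0.05 after quantile normalization (−0.05, FDR 0.711), without the experiment covariate (FDR 0.380) and in the second experiment alone (FDR 0.0845). Neither of its transcripts reached the filter for testing. With no filter, the one of 2626 bases had a difference of 0.08 (SE 0.45, FDR 0.940), at 0 and 4.40 TPM in Control_LT-HSC against 3.74 and 2.62 in VavReg1_KO_LT-HSC, and the one of 2161 bases had −1.17 (SE 0.37, FDR 0.116), so the fall of the gene-level sum was not resolved for either transcript.

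Cebpb (ENSMUSG00000056501, chr2:167688915-167690418, plus strand) encodes the factor that takes over in emergency granulopoiesis. Control had 16.9, 29.7 and 11.6 TPM and VavKO had 9.63, 7.98 and 14.2, so the groups overlapped. Control_LT-HSC had 16.7 and 14.4 and VavReg1_KO_LT-HSC had 11.5 and 7.76, with no overlap. The difference was the smallest of the 9 that passed (−0.71, SE 0.25, limma FDR 0.0337), and 14 of the 21 alternatives put it above the threshold, with FDRs up to 0.539. Among these were quantile normalization (−0.21), median-of-ratios scaling (−0.33, FDR 0.286), each experiment alone (FDR 0.120 and 0.175) and the omission of any 1 of 7 libraries.

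Cebpd (ENSMUSG00000071637, chr16:15887286-15891031, plus strand) encodes an early-response C/EBP factor. It was 1.93, 1.54 and 1.30 TPM in Control and 3.40 and 4.45 in Control_LT-HSC. All 5 libraries labelled Reg1Δ/Δ were under 1 TPM, at 0.101, 0.213 and 0.698 in VavKO and 0.413 and 0.445 in VavReg1_KO_LT-HSC. Cebpd fell by 1.29 on the log2 scale (SE 0.19, limma FDR 3.42e-04), but it could be tested only because it was high in the controls, so this call adds no support, and it was lost after quantile normalization (−0.30, FDR 0.153). Leaving out any 1 control library took it below the filter. In the fit with no filter its FDR was 0.00181.

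Cebpe (ENSMUSG00000052435, chr14:54710360-54712174, minus strand) encodes the factor of late granulocyte maturation, which turns on secondary granule genes. The first experiment had 0.590, 1.11 and 1.03 TPM in Control and 0.137, 0.0375 and 0.416 in VavKO. Control_LT-HSC had far more, 10.9 and 24.0 TPM, and VavReg1_KO_LT-HSC had 2.14 and 1.94. Cebpe fell by 1.41 on the log2 scale (SE 0.35, limma FDR 0.00749). Its difference was −0.68 in the first experiment alone and −2.50 in the second alone. The difference between these, −1.82 (SE 0.42), had a raw p of 0.00218 and an FDR of 0.148 in the limma interaction test, and at FDRs under 0.05 that test called 0 of the 10 genes and 0.443% of all genes. Without the Control_LT-HSC replicate 1 library the interaction of Cebpe was −2.36 with an FDR of 0.0255, so a single library settled whether it passed. Cebpe missed the threshold after quantile normalization (FDR 0.124), without the covariate (FDR 0.235) and in the second experiment alone (FDR 0.0647), and the range over the alternatives was 0.00115 to 0.235. Between the control groups the neutrophil markers differed in the same direction as Cebpe, with a summed TPM of 11290 to 13190 in Control_LT-HSC and 1229 to 4004 in Control, but within VavKO replicate 3 had the highest Cebpe and the lowest sum (8.54) and replicate 2 the lowest Cebpe and the highest sum (592). Their part in the result was not tested.

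**Figure D2:**
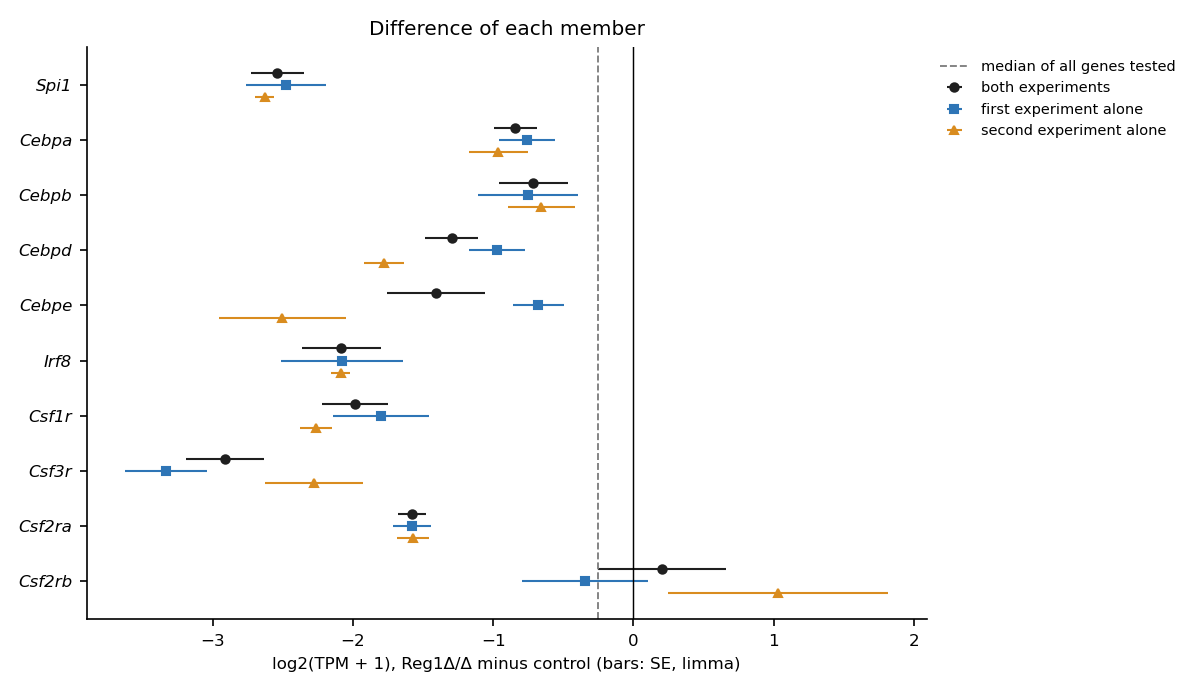
Log2(TPM + 1) of the libraries labelled Reg1Δ/Δ minus control for each gene, in both experiments together (circles), the first alone (squares) and the second alone (triangles), with bars of 1 SE and a dashed line at the median of all genes tested. The points of the 9 genes other than Csf2rb lie left of the dashed line in each fit, with Csf3r and Spi1 farthest in the joint one, and the Csf2rb points lie on both sides of 0.

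The receptor genes split between one chain and the rest. Csf1r (ENSMUSG00000024621, chr18:61100598-61132149, plus strand), the receptor for M-CSF and IL-34 and a known target of Pu.1, was 7.48, 3.08 and 3.97 TPM in Control and 6.46 and 5.44 in Control_LT-HSC. VavKO had 0.356, 0.293 and 1.33, and VavReg1_KO_LT-HSC had 0.496 and 0.392. The VavKO replicate 3 library was the only one labelled Reg1Δ/Δ above 1 TPM, and it too lay under every control. Csf1r fell by 1.99 on the log2 scale (SE 0.24, limma FDR 9.46e-05), with a 7.36-fold and a 13.4-fold difference of means, and it passed under all 20 alternatives in which it was tested. It reached 1 TPM in 5 controls and 1 library labelled Reg1Δ/Δ, so it met the filter through the controls and its call adds no support. In the limma fit with no filter its FDR was 7.85e-04. Its coding transcript of 3870 bases was lower as well (−1.54, SE 0.45, FDR 0.0373, or 0.104 with no filter), and that of 4701 bases did not reach the filter.

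Csf3r (ENSMUSG00000028859, chr4:126024550-126044440, plus strand) encodes the G-CSF receptor. It was 46.5, 46.2 and 29.0 TPM in Control, against 2.96, 1.95 and 4.63 in VavKO. The second experiment had 15.6 and 18.6 TPM in Control_LT-HSC, against 3.87 and 1.82 in VavReg1_KO_LT-HSC. This was the largest log2 difference among the 10 genes in the joint fit (−2.91, SE 0.28, limma FDR 2.40e-05), and the means differed 12.8-fold and 5.99-fold in the 2 experiments. Spi1 had a larger one than Csf3r in the second experiment alone (−2.63 against −2.28) and after quantile normalization (−2.38 against −2.31). The difference between experiments, 1.05, did not pass the interaction test (FDR 0.424), and in the second experiment alone the FDR of Csf3r was 0.0515, the highest of its 21 alternatives. Of its 4 transcripts, 3 could be tested and all were lower, the coding ones of 3160 bases (−2.66, FDR 2.73e-04) and 3481 bases (−1.83, FDR 0.00685) and a processed one of 921 bases (−1.60, FDR 0.0486, or 0.126 with no filter).

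GM-CSF needs both chains of its receptor, an alpha chain of its own and a beta chain shared with the IL-3 and IL-5 receptors. The alpha chain gene, Csf2ra (ENSMUSG00000059326, chr19:61223957-61228429, minus strand), had the smallest SE of all 10 genes. Its values were 14.9, 11.5 and 12.7 TPM in Control and 3.55, 3.76 and 3.70 in VavKO, then 13 and 15.2 in Control_LT-HSC and 4.25 and 3.88 in VavReg1_KO_LT-HSC. The means differed 3.55-fold and 3.46-fold, and the limma difference was −1.58 (SE 0.10, FDR 1.96e-06), with FDRs up to 0.0237 over the 21 alternatives. The difference between the experiments was 0.01 on the log2 scale (interaction FDR 0.990).

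The beta chain gene, Csf2rb (ENSMUSG00000071713, chr15:78325752-78353847, plus strand), followed no such pattern. It was 13.9, 17.3 and 11.0 TPM in Control and 15.7, 4.58 and 16.2 in VavKO, then 7.66 and 29.1 in Control_LT-HSC and 26.3 and 38.9 in VavReg1_KO_LT-HSC. The groups overlapped in both experiments. Its log2 difference was 0.21 (SE 0.46, limma FDR 0.727), the SE being the widest of the 10 genes, with FDRs from 0.216 to 0.991 over the alternatives. In the first experiment alone the value was −0.35, and in the second 1.03. It turned to −0.20 without the Control_LT-HSC replicate 1 library and to −0.01 without the VavReg1_KO_LT-HSC replicate 2 library. A difference of either sign was therefore not resolved from the spread between samples. In VavReg1_KO_LT-HSC, a transcript of 328 bases held 53.3% to 64.3% of the gene's TPM. The long coding transcript of 4764 bases had a log2 difference of 0.18 (SE 0.32, FDR 0.712). Csf2rb lies near its close paralog Csf2rb2, which encodes a beta chain used by the IL-3 receptor, and reads that both share could be split either way. Csf2rb2 had a difference of 0.09 (FDR 0.776).

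The pair of chains was compared within samples after these values had been seen, so it is given with no test. The log2 ratio of Csf2ra to Csf2rb, each as TPM + 1, was 0.09, −0.56 and 0.19 in Control and 0.69 and −0.89 in Control_LT-HSC. It was −1.88, −0.23 and −1.87 in VavKO and −2.38 and −3.03 in VavReg1_KO_LT-HSC. The VavKO replicate 2 library, the lowest for Csf2rb, lay within the control range, and the other 4 libraries labelled Reg1Δ/Δ lay below all controls.

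**Figure D3:**
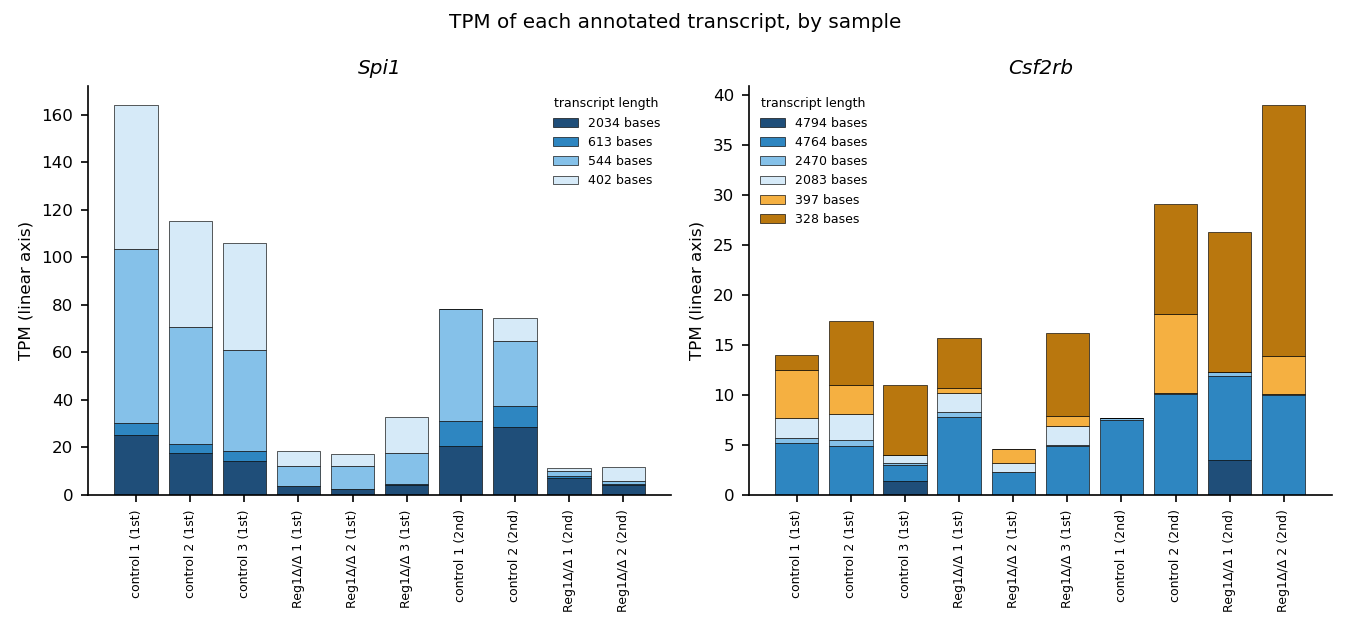
TPM of each annotated transcript of Spi1 and Csf2rb in every sample, stacked on a linear axis and coloured by transcript length, for control and Reg1Δ/Δ libraries of the first (1st) and second (2nd) experiment. Every Spi1 stack of the libraries labelled Reg1Δ/Δ is shorter than every control stack, and in the VavReg1_KO_LT-HSC libraries the transcript of 328 bases is the largest block of Csf2rb.

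At the level of transcripts, 19 of the 30 belonged to those with a TPM of at least 1 in 5 samples. Of these, 11 were lower in the libraries labelled Reg1Δ/Δ, 0 were higher and 8 did not pass. Over all transcripts tested, 14.9% were lower and 6.4% were higher. The 11 came from 7 genes. Between 8 and 10 transcripts were lower in each of the alternatives run at this level, 8 of them with no filter, where the calls of Cebpe (FDR 0.0669), of the Csf1r transcript and of the processed Csf3r transcript were lost. Of all 95912 transcripts in the fit with no filter, 5449 were lower. The longest coding transcript could be tested for 7 genes and was lower in 6, the Cebpd transcript among them having passed the filter through the controls alone, and the exception being Cebpb, which has a single transcript (−0.71, FDR 0.0814 over transcripts).

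The order of levels differed between the groups. By mean TPM, Spi1 was first in Control (128), Control_LT-HSC (76.2) and VavKO (22.8), and in each of these its samples lay above those of the next gene. In VavReg1_KO_LT-HSC the first was Csf2rb (32.6), followed by Spi1 (11.5) and Cebpb (9.66), whose values overlapped those of Spi1. Irf8 and Csf3r came next to Spi1 in Control, at means of 40.7 and 40.6 with overlapping values. The lowest places were held by Cebpd, Cebpa and Cebpe in Control, with overlapping values between neighbours, whereas Cebpe, at 17.4, ranked just above Csf3r in Control_LT-HSC, again with overlapping values.

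Replicates also differed together. Among the 3 VavKO libraries, replicate 3 was the highest for 9 of the 10 genes, Cebpb, Spi1, Irf8 and Csf1r among them, and the exception was Csf2ra. The summed TPM of granulocyte-monocyte progenitor markers was 1238 in that library and 415 and 178 in the other VavKO libraries, and that of monocyte and macrophage markers was 190, against 34.8 and 15.1. Its neutrophil marker sum was the lowest of all samples, 8.54. Without it, 9 of the 10 genes were lower in the libraries labelled Reg1Δ/Δ, the same number as with it.

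Promoter windows from RefSeq (GRCm38.p6, 300 bases, 250 of them before the transcription start) were at hand for Cebpa, Cebpb, Irf8, Csf3r and Csf2ra, 5 of the 10 genes, with 2 windows for Irf8. The windows used were searched because all of these 5 genes moved in one direction and several are known targets of Pu.1 or C/EBP factors. The letters AGGAAGT, a core of Pu.1 sites, occur on either strand in 9.35% of the 32851 windows in the table, and TTGCNNAA, a C/EBP pattern with free middle bases, in 10.8%. None of the 6 windows held either. The shorter Ets core GGAA, looked for after that result, occurs in 96.0% of all windows and overlaps the longer Pu.1 core. Its count over whole windows was 7 for Csf3r, 5 for Csf2ra, 2 for Cebpb, 2 and 3 for Irf8 and 1 for Cebpa, so 4 of the 6 windows were at or below the median of 3 over all windows. 3 windows are printed, the pair with the most GGAA and that of Cebpa, chosen after the counts were seen, and the matching stretches of Cebpb and Irf8, not printed, hold 0 for Cebpb and 0 and 1 for Irf8. The bases before the annotated gene are given 5′ to 3′ on the gene's strand, with GGAA or its reverse complement TTCC in capitals. They are chr4:126024409-126024549 for Csf3r, chr19:61228430-61228579 for Csf2ra (minus strand) and chr7:35119143-35119292 for Cebpa. No binding was measured in these samples, and a match describes letters alone.
Csf3r: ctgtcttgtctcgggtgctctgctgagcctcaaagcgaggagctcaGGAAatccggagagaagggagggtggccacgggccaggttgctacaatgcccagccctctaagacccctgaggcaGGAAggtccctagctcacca
Csf2ra: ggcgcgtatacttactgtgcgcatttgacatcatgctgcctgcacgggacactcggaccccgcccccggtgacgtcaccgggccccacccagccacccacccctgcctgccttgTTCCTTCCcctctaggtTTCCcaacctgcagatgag
Cebpa: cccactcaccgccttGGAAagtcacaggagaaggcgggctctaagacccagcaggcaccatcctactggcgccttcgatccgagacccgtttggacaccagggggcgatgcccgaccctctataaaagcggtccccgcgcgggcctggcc

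Other transcription factors of myeloid cells were taken as a list of 18 genes. Of the 13 that passed the filter, 9 were lower in the libraries labelled Reg1Δ/Δ and 0 were higher, although quantile normalization gave 1 higher and median-of-ratios scaling 2, and the median log2 difference was −1.98, where all genes had 37.9% lower and 15% higher. Nfil3, Spib and Spic reached 1 TPM in the controls alone, so they could be tested only because they were high there, and their calls add no support. With no filter, 11 of the 18 were lower, and 5592 of all 33393 genes were lower. The Ets-family gene Ets1 lay between 9.43 and 19.9 TPM in Control and between 32.7 and 46.9 in Control_LT-HSC, and between 0.331 and 0.707 in VavKO and 0.764 and 1.62 in VavReg1_KO_LT-HSC (−3.75, SE 0.25, limma FDR 2.30e-06). No VavKO library reached 1 TPM of Ets1, which met the filter through the controls, so its call adds no support either. Id2, an inhibitor of helix-loop-helix factors, fell by 3.56 on the log2 scale (FDR 1.97e-06). Spib, the closest relative of Spi1, was 2.27 to 3.81 TPM in Control and 18.4 to 22.5 in Control_LT-HSC, and at most 0.125 TPM in any library labelled Reg1Δ/Δ (−2.86, FDR 2.71e-04). Irf5, of the same family as Irf8, fell by 2.75 (FDR 1.79e-04).

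The ligands, the other receptor chains and the signalling genes behind the receptors moved less. Of 25 genes in that list, 23 had values here, Csf3 and Il3 were not analysed here, and Csf2, Il34, Il5, Il5ra, Il6 and Il6ra were below the filter. Among the 17 tested, 8 were lower in the libraries labelled Reg1Δ/Δ, a share near the 37.9% of all genes, and 0 were higher (15% of all genes), with a median log2 difference of −0.47 against −0.25 for all genes, and quantile normalization changed the counts to 4 lower and 4 higher, and median-of-ratios scaling to 5 and 1. Il6st, the gp130 chain of the IL-6 receptor family, had the largest difference, with 25.0 to 35.2 TPM in Control and 0.133 to 0.866 in VavKO (−3.94, SE 0.25, limma FDR 1.75e-06). It was 0.704 to 1.51 TPM in VavReg1_KO_LT-HSC and met the filter through the controls, so its call adds no support. Cish, a feedback gene of STAT5, fell by 2.06 (FDR 0.00138). Socs3, the feedback inhibitor of the G-CSF receptor, fell by 1.25 (FDR 0.00280), although its groups overlapped. Il3ra, the alpha chain that pairs with the beta chain of Csf2rb, fell by 1.28 (FDR 0.00116).

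The last list held 25 myeloid genes that are known targets of Pu.1 or C/EBP factors or are expressed with them. Of the 23 tested, 18 were lower in the libraries labelled Reg1Δ/Δ, 0 were higher (1 after median-of-ratios scaling), and the median log2 difference was −2.98, against 37.9% lower, 15% higher and a median of −0.25 for all genes. Cd14 and Il6ra were below the filter, and Itgam passed it through the controls alone. Genes of secondary granules and of neutrophil cytoplasm led the list. S100a9 was 237 to 666 TPM in Control and 5864 to 6262 in Control_LT-HSC, and 0.196 to 92.3 and 70.1 to 107 in the libraries labelled Reg1Δ/Δ (−5.62, SE 0.96, limma FDR 8.80e-04). S100a8 (−5.25, FDR 6.35e-04), Ltf (−5.25, FDR 9.64e-04) and Ngp (−5.21, FDR 7.44e-04) had differences of like size. The 5 that did not pass, named after their values were seen, were Btk (0.19, FDR 0.0987) and 4 genes that mark granulocyte-monocyte progenitors. These 4 were Mpo (−1.77, FDR 0.0683), Elane (−1.45, FDR 0.111), Ctsg (−1.40, FDR 0.113) and Ms4a3 (−1.37, FDR 0.106), 3 of which encode primary granule proteins. Prtn3, another primary granule gene (−1.77, FDR 0.0124), and Fcgr3 (−2.08, FDR 7.28e-04) are progenitor markers of the same list that passed. Mpo was 1049 to 1445 TPM in Control and 43.8 to 630 in VavKO, but 318 to 320 in Control_LT-HSC and 283 to 364 in VavReg1_KO_LT-HSC.

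**Figure D4:**
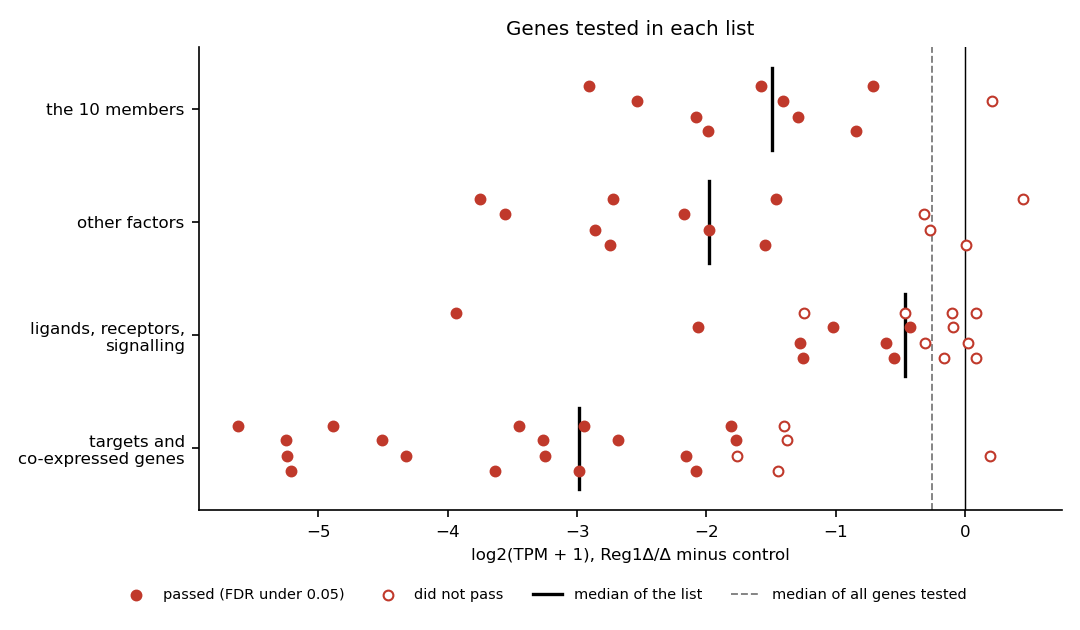
Log2(TPM + 1) of the libraries labelled Reg1Δ/Δ minus control for every tested gene of the 10 and of 3 lists, as filled points where the FDR was under 0.05 and open points where it was not, with a bar at each list's median and a dashed line at the median of all genes. The filled points all lie left of 0, and the medians are −1.49 for the 10 genes, −1.98 for other factors, −0.47 for ligands, receptors and signalling and −2.98 for targets and co-expressed genes.

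Markers of mature myeloid cells moved with these genes. All 8 neutrophil markers and all 6 tested monocyte and macrophage markers were lower in the libraries labelled Reg1Δ/Δ, Mmp8 and C1qb among them having passed the filter through the controls alone. Of 7 granulocyte-monocyte progenitor markers 3 were lower, near the 37.9% of all genes, and their median log2 difference was −2.45 in the first experiment alone and 0.01 in the second alone. The neutrophil sum was 8.54 to 592 TPM in VavKO and 156 to 259 in VavReg1_KO_LT-HSC, and the monocyte and macrophage sum was 15.1 to 190 and 77.2 to 105, against 161 to 327 in Control and 228 to 252 in Control_LT-HSC. No marker of these 3 lists was at 0 in all samples of any group. Markers of the HSCs themselves were lower too, 10 of the 11 tested, Fgd5 having passed the filter through the controls alone. The exception was Ly6a, the Sca-1 antigen, at 85.2 to 108 TPM in Control and 50.9 to 449 in VavKO, and at 68.1 to 73.8 in Control_LT-HSC and 115 to 124 in VavReg1_KO_LT-HSC, where the groups did not overlap (0.92, FDR 0.155), which weighed heavily in the VavKO sums. The HSC marker sums were 793 to 901 TPM in Control, 190 to 570 in VavKO, 366 to 542 in Control_LT-HSC and 187 to 209 in VavReg1_KO_LT-HSC. The progenitor sum differed in the first experiment, 1950 to 2573 against 178 to 1238 TPM, and overlapped in the second, 903 to 971 against 748 to 944. The part of other cell types in the levels of Spi1, the C/EBP genes and the receptors was not tested.

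**Figure D5:**
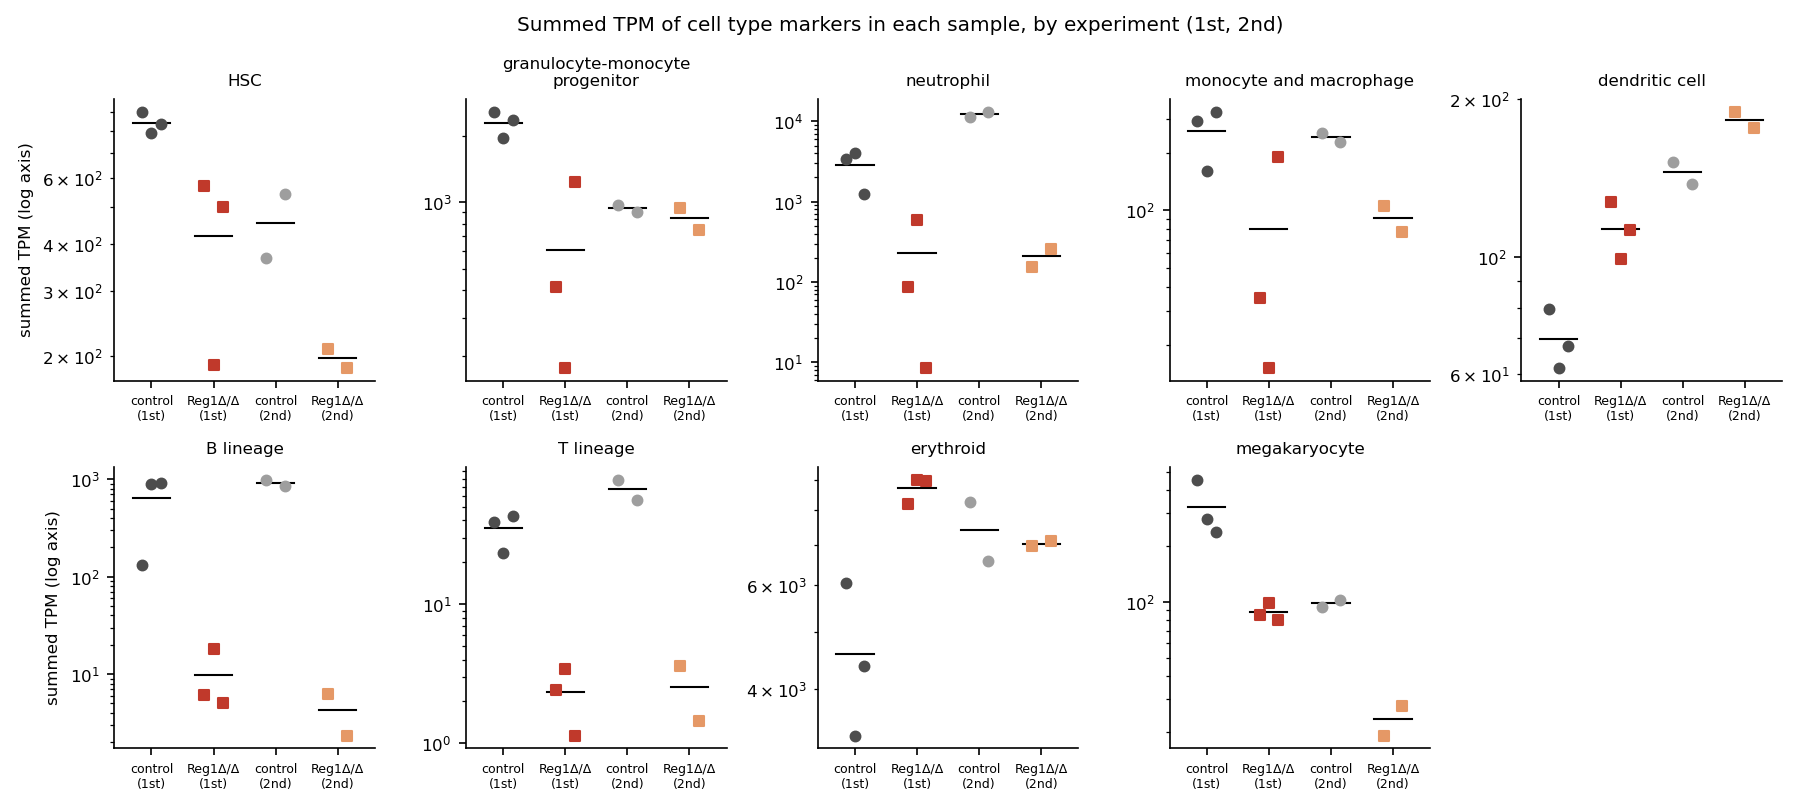
Summed TPM on a log axis of the markers of 9 cell types in every sample, for control (circles) and Reg1Δ/Δ libraries (squares) of the first (1st) and second (2nd) experiment, with a line at each group mean. Neutrophil sums are at least 1229 in every control and at most 592 in every library labelled Reg1Δ/Δ, and the progenitor sums of the second experiment overlap.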

How the data were processed

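RNA-seq of CD34- HSCs from 5 control and 5 Reg1Δ/Δ mice was used. The authors aligned reads to GRCm38 with STAR, estimated TPM per transcript with Salmon 0.9.1 and GENCODE M17, and deposited log2(TPM + 1) values on the log2 scale. The paper and the labels name different cDNA kit versions. From these values, TPM was recovered and summed over the transcripts of each gene. Genes reaching 1 TPM in 5 or more samples entered the limma fit (version 3.58.1, R 4.3.3) on log2(TPM + 1), a pseudocount of 1, with the experiment as a covariate and Benjamini-Hochberg adjustment at 0.05 over all genes tested. The step was tested on simulated data. Experiments were assigned from sample titles. The header of the VavReg1_KO_LT-HSC replicate 2 values carries the name of replicate 1, but the values differ.

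All 10 genes were named whatever their values, and up to 4 called genes with the largest difference per list. Members, lists and tests were chosen with earlier results of these data known. Cell type markers were listed for HSCs, granulocyte-monocyte progenitors, neutrophils, monocytes and macrophages, dendritic cells, B and T lineage, erythroid cells and megakaryocytes. Alternatives were other filters, a pseudocount of 0.1, no covariate, each experiment alone, other scalings, eBayes with a trend, the replicate block, each library left out and, added after seeing the data, the longest coding transcript alone. Gene coordinates are from GENCODE M21 on GRCm38. Depth is unknown, so the precision of single values was not estimated.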

Additional observations from a re-analysis of the deposited data

How the results depend on the processing

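Spi1, Irf8, Csf1r and Csf2ra passed with the same sign under every alternative in which they were tested, but Csf1r met the filter through the controls. Over the 10 genes, 208 alternative values were computed, of which 182 kept direction and side of the threshold, 23 lost the call (15 of them for Cebpb) and 3 changed sign, all for Csf2rb, to −0.35 in the first experiment alone, −0.20 without Control_LT-HSC replicate 1 and −0.01 without VavReg1_KO_LT-HSC replicate 2 (range −0.20 to 0.57 with each library left out). The 9 genes lower became 5 after quantile normalization, with 1 TPM required of every sample and in the second experiment alone, 6 without the covariate and with the longest coding transcript alone, and 7 to 9 when each library was left out, in part because Cebpd then fell below the filter. With 1 TPM required of every sample, Cebpa, Cebpd, Cebpe and Csf1r were not tested. The same holds for genes of the lists under 1 TPM in any sample. Whether the numbers in the titles pair the samples was not settled. Same-number correlations of deviations were 0.033, 0.175 and 0.068 in the first experiment, and different-number ones ran from −0.116 to 0.061. With 2 libraries per group in the second experiment, deviations mirror each other, so its −0.054 and 0.054 are a single value. With the replicate block 8 of the 10 genes were lower, Cebpb being lost (FDR 0.0724), and 1703 genes were higher and 4545 lower over all. Other factors called higher went from 0 to 1 after quantile normalization, with 1 TPM required of every sample, in the second experiment alone and with a trend, to 2 after median-of-ratios scaling and to 0 to 1 with 1 library left out, and those lower from 9 to 3 with 1 TPM required of every sample. For ligands, receptor chains and signalling, higher calls went from 0 to 4 after quantile normalization, and to 1 in the first experiment alone and after median-of-ratios scaling. Lower calls there went from 8 to 3 without the covariate and in the second experiment alone, to 4 after quantile normalization and to 5 after median-of-ratios scaling. In the other direction, they went to 12 with protein-coding transcripts alone and to 10 with a trend and without Control_LT-HSC replicate 1. Target genes higher went from 0 to 1 with no filter and after median-of-ratios scaling, and those lower from 18 to 10 with 1 TPM required of every sample. Interaction calls among the 10 genes were 0 to 1 with each library left out. Apart from genes that a filter removed, the cause of these shifts was not tested. TPM keeps no depth, so a small difference in a low gene such as Cebpa or Cebpe could not be set against counting error.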

Other observations

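Marker genes outside the myeloid lineage did not all move down with Spi1 and the receptors. Over all genes tested 37.9% were lower and 15% higher. Of 7 erythroid markers, 4 were lower in the libraries labelled Reg1Δ/Δ and 2 were higher, all named after their values were seen. The 4 were the globin genes Hba-a1 (log2 difference −2.50), Hba-a2 (−3.00), Hbb-bs (−3.19) and Hbb-bt (−2.14), with limma FDRs from 2.78e-05 to 3.54e-04, and near-identical copies among them can share reads. The 2 were Klf1, an erythroid transcription factor, which was 27.8 to 90.7 TPM in Control and 242 to 284 in VavKO (log2 difference 1.80, limma FDR 9.55e-04), and Car1, a carbonic anhydrase of red cells, at 505 to 2709 and 7568 to 8301 TPM (2.24, FDR 0.00111). Car1 made up most of the VavKO sums. Erythroid sums were 3345 to 6034 TPM in Control and 8213 to 9019 in VavKO, and 6565 to 8263 and 6963 to 7109 in the second experiment, where they overlapped. Among the 3 dendritic cell markers tested, Bst2 (0.59, FDR 0.00507) and Zbtb46 (0.90, FDR 0.0145) were higher and Klrd1, which passed the filter through the controls alone, was lower (−1.77, FDR 9.04e-04), while Irf8, a factor of that lineage, fell.

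B lineage markers were lower in all 6 tested, with sums of 131 to 916 TPM in Control, 855 to 996 in Control_LT-HSC, 5.04 to 18.1 in VavKO and 2.34 to 6.27 in VavReg1_KO_LT-HSC. The T lineage sum was 23.4 to 78.7 TPM in the controls of both experiments and 1.14 to 3.62 in the libraries labelled Reg1Δ/Δ, with 1 marker tested and lower. All 4 tested megakaryocyte markers were lower. Control replicate 1 had the lowest B lineage sum of the controls, 131 TPM, and without it 7 of the 10 genes were lower, Cebpb being lost and Cebpd below the filter. The number was also 7 without Control replicate 2 and without either Control_LT-HSC library, and 8 without Control replicate 3, so it was not particular to that library.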
